A study of Mus musculus with 10 samples.

Results

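Transcripts of 7 G protein-coupled receptors of myeloid cells are described across 3 groups of mouse hippocampal microglia: Gpr34, Gpr183, Gpr84, Gpr65, Gpr165, Gpr160 and Adgrg1. They are 7 of the 19782 genes in the deposited table, and all 7 were among the 12505 genes with enough counts for testing. The receptors were chosen by name, as GPR receptors of myeloid cells, at a time when their levels in these same libraries were already known. Their differences between the groups are therefore given as descriptions, with fitted fold changes and intervals but no p-values.

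Microglia, the resident macrophages of the brain, had been sorted from hippocampus as CD45low CD11b+ cells, and their RNA was made into Smart-Seq libraries. The wild-type group comprised 4 libraries from WT mice on normal diet. The control group comprised 3 libraries from 5xFAD mice on normal diet; this line expresses mutant human transgenes of familial Alzheimer disease in neurons and forms amyloid plaques. The repopulated group comprised 3 libraries from 5xFAD mice fed PLX3397 at 290 mg/kg of chow for 1 month from 4 months of age and then normal diet for 1 month. PLX3397 inhibits the CSF1 receptor, whose signal keeps microglia alive, so the cells of the third group had been depleted and had grown back. The labels give no age for the wild-type and control mice, and repopulated wild-type mice were not analysed here. Nor do they say whether libraries of a group came from different animals, so any p-value given below measures the spread among these libraries, which could be technical.

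Library totals were 18501136 to 23286814 estimated counts. The 10 microglial marker genes, all detected, summed to 41022.9 to 54315.2 CPM (library-scaled counts by the TMM method) in every library, against 19.1 to 335 CPM for 8 neutrophil markers, 33.7 to 74.9 CPM for 8 monocyte markers and 54.1 to 111 CPM for 8 markers of border macrophages. In 3 libraries, namely wild-type 2, control 1 and control 3, the summed level of 4 Y-linked genes was only 5.12 to 16.01 CPM before scaling, against 341.87 to 483.79 CPM elsewhere; they are called the Y-low libraries below. Wild-type 3 held more neuronal and erythroid RNA than the other wild-type libraries, with Snap25 at 28.2 CPM against 5.03 to 6.65 CPM. It also had the highest summed astrocyte and oligodendrocyte markers, with Aldoc at 170 against 7.73 to 14.4 CPM and Mbp at 48.1 against 8.98 to 14 CPM. Not every marker of these lists stood apart, for example Mag at 15.6 against 14.5 to 23.6 CPM. In bulk RNA of this kind, fewer cells that express a gene and less RNA of it per cell cannot be told apart.

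G protein-coupled receptors cross the membrane with a bundle of helices and pass binding of a ligand outside the cell to a G protein inside it. Microglia carry several that read lipids and the state of the tissue: GPR34 is a receptor for lysophosphatidylserine, GPR183 guides cells along oxysterol gradients, GPR84 responds to medium-chain fatty acids and GPR65 is activated by protons and raises cyclic AMP. GPR165 and GPR160 are orphans with no generally accepted ligand, and ADGRG1, also known as GPR56, belongs to the adhesion class, whose long extracellular parts bind matrix proteins and phosphatidylserine.

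Promoter sequences of 3 receptors are shown because these genes had the largest differences between control and wild-type microglia among the 7. In the RefSeq promoter table used here (GRCm38.p6) 6 of the 7 receptors matched, all but Gpr34, with 2 starts for Adgrg1, and the 250 bases before each start were searched on both strands. The motifs were the PU.1 core GAGGAA, found in 23.3% of 32851 promoter windows of the same length, the AP-1 site TGANTCA in 6.7%, the interferon-stimulated response element in 3% and the E-box CACGTG in 6%. The windows lie on the plus strand at chrX:96713218-96713467 for Gpr165, at chr12:98268385-98268634 for Gpr65 and at chr8:94984149-94984398 for the second start of Adgrg1. Capitals mark matches.
Gpr165: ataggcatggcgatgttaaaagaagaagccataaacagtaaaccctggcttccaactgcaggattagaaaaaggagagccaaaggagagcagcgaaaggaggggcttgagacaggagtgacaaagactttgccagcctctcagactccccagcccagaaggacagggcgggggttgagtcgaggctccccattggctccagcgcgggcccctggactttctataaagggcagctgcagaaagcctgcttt
Gpr65: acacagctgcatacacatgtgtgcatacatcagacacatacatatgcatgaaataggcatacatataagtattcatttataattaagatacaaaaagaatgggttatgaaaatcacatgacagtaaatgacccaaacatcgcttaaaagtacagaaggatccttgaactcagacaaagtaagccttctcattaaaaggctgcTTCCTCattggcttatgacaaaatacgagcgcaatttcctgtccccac
Adgrg1: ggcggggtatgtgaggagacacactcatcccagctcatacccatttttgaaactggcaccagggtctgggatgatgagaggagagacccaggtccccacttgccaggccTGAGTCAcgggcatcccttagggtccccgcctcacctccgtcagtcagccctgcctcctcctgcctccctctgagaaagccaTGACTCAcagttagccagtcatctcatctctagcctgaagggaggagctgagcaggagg
The Gpr65 window held 1 PU.1 core, on the minus strand, beginning 48 bases before the start. The Adgrg1 window held 2 AP-1 sites, beginning 141 and 59 bases before the start. None of the 4 motifs was found in the windows of Gpr165, Gpr183, Gpr84, Gpr160 or the first start of Adgrg1. A match describes these letters and says nothing about binding.

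Relative to wild type, control 5xFAD microglia held more Gpr65 and less Gpr165, Adgrg1 and Gpr160, while Gpr34, Gpr183 and Gpr84 overlapped between these groups. Repopulated microglia lay between the other 2 groups for the mean levels of Gpr65, Gpr165, Adgrg1 and Gpr160. Their Gpr34 was lower than in every control library.

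**Figure D1:**
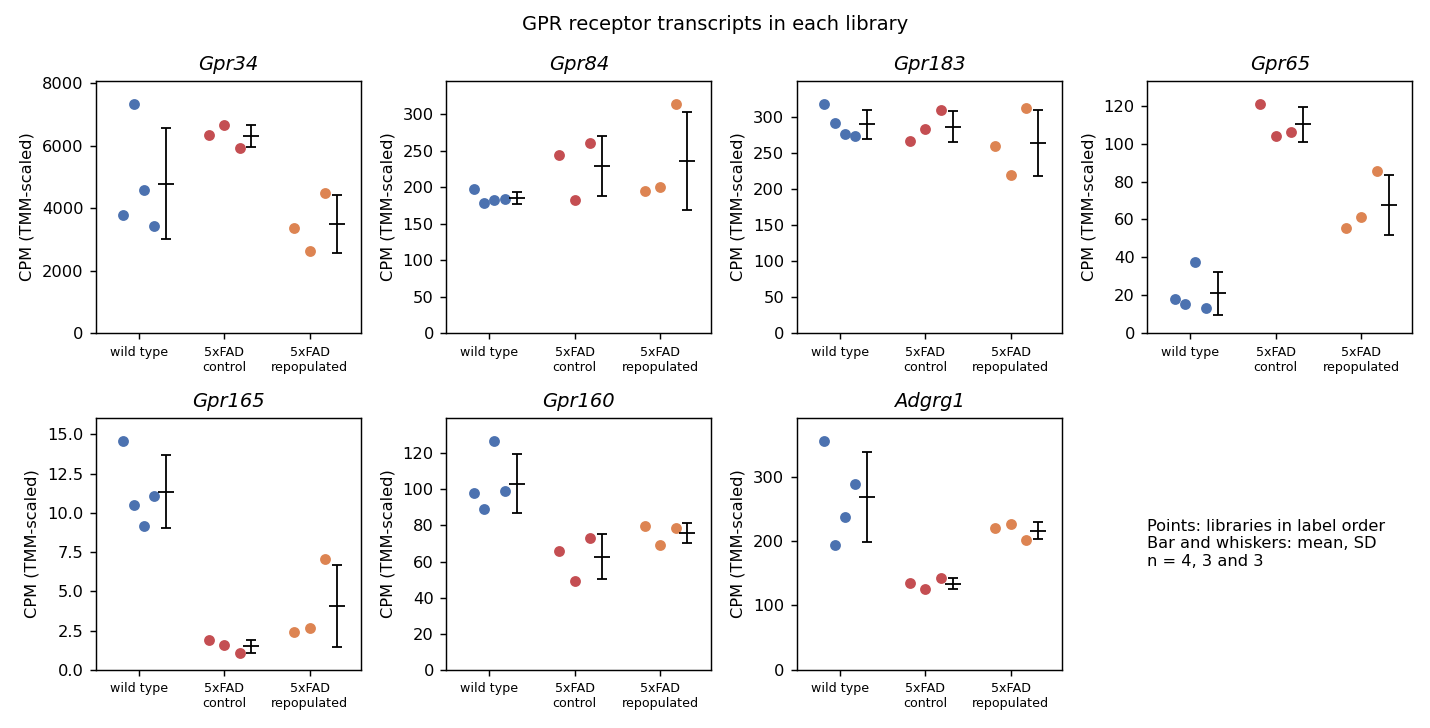
Level of each of the 7 receptor transcripts (CPM, linear axis from 0) in every library, grouped as wild type, 5xFAD control and 5xFAD repopulated, with the mean and SD beside each group. Control libraries lie above all wild-type libraries for Gpr65 and below all of them for Gpr165, Gpr160 and Adgrg1.

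In control against wild-type microglia, 1 of the 7 receptors was called higher and 3 lower by edgeR's quasi-likelihood test at a Benjamini-Hochberg adjusted p of 0.05, and 3 were not called. Of all 12505 tested genes 18.1% were called, 10.1% higher and 8.04% lower. In repopulated against control microglia 0 of the 7 were called by edgeR, 4 had an unadjusted p under 0.05, DESeq2 called 3 and limma-voom 0; 0.568% of all genes were called, 0.352% higher and 0.216% lower. In repopulated against wild-type microglia 1 was called higher and 1 lower, where 4.18% of all genes were called, 3.4% higher and 0.784% lower. Groups did not overlap for 4, 4 and 3 of the 7 receptors in these comparisons, and for 26.7%, 30.7% and 16.0% of all tested genes. The median log2 fold change of the 7 was -0.02, 0.05 and -0.32, against -0.06, 0.00 and -0.02 over all tested genes. As the choice of the receptors drew on these contrasts, nothing is read from these counts, and the comparisons share libraries with each other.

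**Figure D2:**
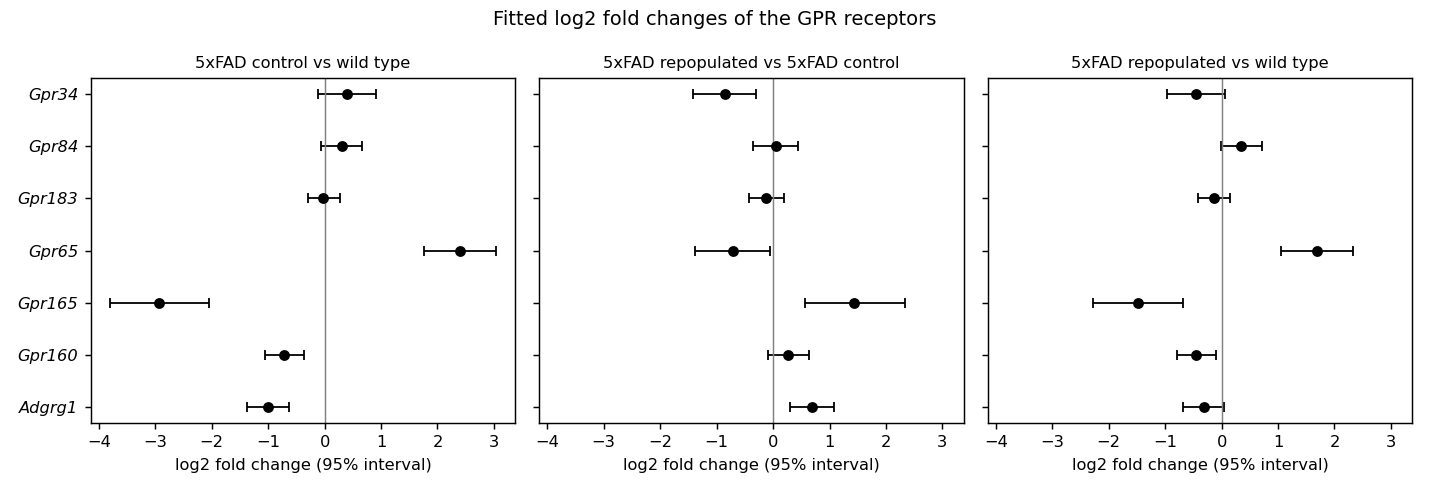
Fitted log2 fold changes of the 7 receptors in the 3 comparisons, with 95% intervals, and a line at 0. Gpr165 and Gpr65 lie farthest from 0 in control against wild-type microglia, at -2.93 and 2.40, and the intervals of Gpr183 and Gpr84 cover 0 in all 3 comparisons.

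Gpr34 (Entrez 23890, chromosome X, 13622650 to 13640859 on GRCm38.p6, plus strand) encodes the lysophosphatidylserine receptor of microglia and was the most abundant of the 7. Its level was 3788.2, 7340, 4583.4 and 3444.7 CPM in wild-type 1 to 4, 6350.8, 6659.4 and 5937.5 CPM in control 1 to 3 and 3373, 2628.8 and 4490.1 CPM in repopulated 1 to 3. The control libraries were close together, with an SD of 362 CPM around 6315.9, whereas the wild-type libraries ranged widely because wild-type 2 exceeded every other library. Control and wild-type levels overlapped through wild-type 2 alone, and all repopulated libraries were below all control libraries.

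The fitted log2 fold change of Gpr34 was 0.40 ± 0.24 (SE; 95% interval -0.11 to 0.91) for control against wild type. Without wild-type 2 it was 0.68. For repopulated against control it was -0.85 ± 0.26 (-1.41 to -0.30), which is 1.81-fold lower, and for repopulated against wild type -0.45 ± 0.24 (-0.97 to 0.06). Wild-type 2 is 1 of the 3 Y-low libraries, and the gene is X-linked. With those 3 libraries left out, so that control 2 stood alone for its group, the log2 fold changes were 0.77, -0.92 and -0.16 in the same order. The part of Y-linked status in the Gpr34 levels was not tested beyond these fits.

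The gene lies inside the span of Cask, which is on the opposite strand, and 5275 bases from Gpr82, an orphan receptor gene on the same strand. No exons of Gpr34 and Cask overlap in the annotation, and the strand setting of the counting is not given in the sources used here. The level of Cask (CPM, mean ± SD) was 122 ± 24 in the 4 wild-type, 104 ± 15.7 in the 3 control and 100 ± 14.8 in the 3 repopulated libraries, with no call in any comparison. Gpr82 was at 29.2, 27.3, 15.6 and 23.1 CPM in wild-type 1 to 4, 24.6, 27.6 and 18.4 CPM in control 1 to 3 and 16.5, 16.7 and 12.5 CPM in repopulated 1 to 3. Like Gpr34, it was lower in every repopulated than in every control library, with a log2 fold change of -0.63 ± 0.24 that was not called.

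The enzymes tested that set the supply of lysophosphatidylserine, Abhd16a, Abhd12 and Abhd6, were not called by edgeR in any comparison. Abhd16a, which makes it from phosphatidylserine, measured 32.9 ± 6.04 CPM in wild-type, 28.3 ± 4.27 CPM in control and 33.4 ± 2.43 CPM in repopulated microglia. Abhd12, the main lipase that degrades it, was at 725 ± 82.7, 964 ± 137 and 972 ± 26 CPM (edgeR quasi-likelihood test, Benjamini-Hochberg adjusted p = 0.0539 for control and 0.124 for repopulated against wild type). DESeq2 called it in both (adjusted p = 0.00713 and 0.0246), and limma-voom in the first (0.0482, and 0.0975 in the other). Abhd12 was higher in each of the 6 5xFAD libraries than in any wild-type library. Pla1a, a phospholipase of the same lipid, gave only 6, 13 and 1 counts over the 3 groups and was not tested.

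Gpr183 (Entrez 321019, chromosome 14, 121952331 to 121965193, minus strand), the oxysterol receptor also called EBI2, had close mean levels in the 3 groups. It measured 318, 291, 276 and 273 CPM in wild-type 1 to 4, 267, 283 and 309 CPM in control 1 to 3 and 260, 220 and 312 CPM in repopulated 1 to 3. All 3 groups overlapped, and repopulated 2 and 3 were the lowest and second highest of all 10 libraries. The log2 fold change was -0.02 ± 0.13 (95% interval -0.30 to 0.27) for control against wild type, -0.12 ± 0.14 (-0.42 to 0.19) for repopulated against control and -0.13 ± 0.13 (-0.42 to 0.15) for repopulated against wild type.

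On the deposited scale per transcript length, TPM, Gpr183 was at 188 ± 26.6, 147 ± 11.4 and 150 ± 19.6 in the 3 groups, with every control library (134 to 156) below every wild-type library (164 to 226). The near-equal CPM and the lower TPM of the control libraries thus describe one gene on 2 scales, and only CPM entered the fits. This shift was not particular to Gpr183. Mean Gpr84, for example, was 229 CPM in control against 185 CPM in wild-type libraries, but 239 against 246 TPM. Gpr183 lies inside the span of Ubac2 on the opposite strand, again with no overlapping exons. Ubac2 fell from 52.5 ± 9.5 CPM in wild-type to 29.5 ± 4.54 CPM in control microglia (edgeR log2 fold change -0.83, adjusted p = 0.00315).

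Of the enzymes around the Gpr183 ligand, Ch25h showed a large difference between groups. Ch25h, which adds the first hydroxyl group to cholesterol on the way to that ligand, was at 2.32, 0.237, 0.583 and 1.3 CPM in wild-type 1 to 4, 64.3, 43.2 and 89.6 CPM in control 1 to 3 and 27.3, 35.5 and 61.1 CPM in repopulated 1 to 3. Every 5xFAD library was above every wild-type library, and the repopulated and control ranges overlapped. It rose 58.9-fold in control (edgeR log2 fold change 5.88 ± 0.54, adjusted p = 3.63e-05) and 37-fold in repopulated microglia (5.21 ± 0.53, adjusted p = 0.000173) against wild type. As wild-type counts were few, these log2 fold changes were 6.52 and 5.85 without wild-type 1 and 4.95 and 4.89 with the 3 Y-low libraries left out. Between repopulated and control microglia its log2 fold change was -0.67 ± 0.46 (adjusted p = 0.476).

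Cyp7b1, the enzyme that completes the ligand, was hardly detected, with 1, 1 and 4 counts over the wild-type, control and repopulated groups. Hsd3b7, which inactivates the ligand, was at 45.2 ± 12.4, 34.7 ± 8.76 and 51.9 ± 7.17 CPM and was not called (edgeR adjusted p = 0.249, 0.203 and 0.764 for control against wild type, repopulated against control and repopulated against wild type). Cyp27a1, which makes another oxysterol, fell 1.54-fold from 57.9 ± 8.59 CPM in wild-type to 37.6 ± 1.33 CPM in control microglia (adjusted p = 0.00666, and 0.0826 with the 3 Y-low libraries left out).

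Gpr84 (Entrez 80910, chromosome 15, 103308233 to 103310670, minus strand), the receptor for medium-chain fatty acids, differed little in its mean but varied more among 5xFAD libraries. It was at 197, 178, 183 and 184 CPM in wild-type 1 to 4, 244, 182 and 261 CPM in control 1 to 3 and 194, 200 and 314 CPM in repopulated 1 to 3. The SD was 8.07 CPM in wild-type, 41.5 CPM in control and 67.8 CPM in repopulated libraries. Control 2 fell within the wild-type range, and repopulated 3 was the highest of all.

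The log2 fold change of Gpr84 was 0.31 ± 0.17 (95% interval -0.06 to 0.67) for control against wild type, 0.05 ± 0.18 (-0.35 to 0.44) for repopulated against control and 0.35 ± 0.17 (-0.01 to 0.72) for repopulated against wild type. The last value was 0.09 without repopulated 3. The first was -0.03 with the 3 Y-low libraries left out, in which control 2 is the only control library.

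Gpr65 (Entrez 14744, chromosome 12, 98268635 to 98276722, plus strand), the proton-sensing receptor also called TDAG8, was the member with more transcripts in all 5xFAD libraries. It was at 17.8, 15.1, 37.5 and 13.2 CPM in wild-type 1 to 4, 121, 104 and 106 CPM in control 1 to 3 and 55.7, 61.1 and 85.5 CPM in repopulated 1 to 3. The 3 groups did not overlap at all, with wild type lowest and control highest. Wild-type 3 was more than 2 times any other wild-type library.

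Gpr65 was 5.29-fold higher in control than in wild-type microglia (log2 fold change 2.40 ± 0.29, 95% interval 1.77 to 3.04) and 3.23-fold higher in repopulated than in wild-type microglia (1.69 ± 0.29, 1.06 to 2.32). It was 1.64-fold lower in repopulated than in control microglia (-0.71 ± 0.31, -1.38 to -0.05). Without wild-type 3 the first 2 log2 fold changes were 2.84 and 2.14. Over 21 alternatives the log2 fold change was 2.20 to 2.84 for control and 1.49 to 2.14 for repopulated against wild type. Gpr65 was not called in the latter without the 3 Y-low libraries, where it was 1.58. Nothing is read from this call or its loss, as the choice of the receptors drew on these contrasts.

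Gpr165 (Entrez 76206, chromosome X, 96713468 to 96719388, plus strand), an orphan receptor, was the least abundant of the 7 and had the largest fold difference. It was at 14.6, 10.5, 9.18 and 11.1 CPM in wild-type 1 to 4, 1.87, 1.56 and 1.04 CPM in control 1 to 3 and 2.43, 2.67 and 7.07 CPM in repopulated 1 to 3. The groups did not overlap, although repopulated 3 lay near the wild-type range and the other 2 repopulated libraries near the control range. These levels rest on 189 to 302 counts per wild-type library, 22 to 38 per control library and 54, 61 and 160 in repopulated 1 to 3.

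Gpr165 was 7.6-fold lower in control than in wild-type microglia (log2 fold change -2.93 ± 0.41, 95% interval -3.80 to -2.05). It was 2.72-fold higher in repopulated than in control microglia (1.44 ± 0.41, 0.56 to 2.33) and 2.8-fold lower than in wild type (-1.48 ± 0.38, -2.28 to -0.68). Without repopulated 3 these last 2 log2 fold changes were 0.77 and -2.15. The call against wild type in repopulated microglia was lost without wild-type 1, 2 or 4, without control 1, or without repopulated 1 or 2. It was also lost with the 3 Y-low libraries left out, with Y-linked status as a term, with only the compared groups in the fit and with a replicate block. As the choice of the receptors drew on these contrasts, nothing is read from the call or its loss.

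Gpr160 (Entrez 71862, chromosome 3, 30855759 to 30897194, plus strand), also an orphan receptor, was lower in both 5xFAD groups. It was at 97.9, 89, 127 and 98.9 CPM in wild-type 1 to 4, 65.9, 49.2 and 73.2 CPM in control 1 to 3 and 79.7, 69.3 and 78.4 CPM in repopulated 1 to 3. All 6 5xFAD libraries were below all 4 wild-type libraries, and the 2 5xFAD groups overlapped. The log2 fold change was -0.72 ± 0.16 (95% interval -1.06 to -0.37) for control against wild type, 0.27 ± 0.17 (-0.09 to 0.63) for repopulated against control and -0.45 ± 0.16 (-0.79 to -0.10) for repopulated against wild type. With control 2 as the only control library after leaving out the Y-low libraries, the first 2 were -1.12 and 0.63.

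Adgrg1 (Entrez 14766, chromosome 8, 94974756 to 95014208, plus strand), the adhesion receptor, was at 356, 194, 237 and 289 CPM in wild-type 1 to 4, 135, 125 and 142 CPM in control 1 to 3 and 221, 226 and 201 CPM in repopulated 1 to 3. Control libraries were the 3 lowest, and the repopulated libraries fell inside the wild-type range, above wild-type 2. Wild type had the widest spread, with an SD of 69.9 CPM against 8.5 in control and 12.9 in repopulated microglia.

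Adgrg1 was 2.01-fold lower in control than in wild-type microglia (log2 fold change -1.0 ± 0.17, 95% interval -1.38 to -0.63) and 1.61-fold higher in repopulated than in control microglia (0.69 ± 0.18, 0.30 to 1.1). For repopulated against wild type the log2 fold change was -0.32 ± 0.17 (-0.68 to 0.05). Of its known ligands, Col3a1, a chain of collagen III, gave 1 count in all libraries together. Tgm2, the crosslinking enzyme transglutaminase 2, was at 47.8, 34, 24.2 and 47.4 CPM in wild-type 1 to 4, 24.3, 16.5 and 18.4 CPM in control 1 to 3 and 37.3, 32.3 and 27.8 CPM in repopulated 1 to 3. Tgm2 fell from wild-type to control microglia (edgeR log2 fold change -0.96, adjusted p = 0.0105, 0.0575 without control 2 and 0.0708 without the 3 Y-low libraries), although wild-type 3 and control 1 were level. The neighbouring adhesion receptor gene Adgrg3, 2905 bases away, gave 2, 24 and 2 counts in the 3 groups and was not tested.

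Compared per transcript length, Gpr34 stood far above the rest of the 7 receptors. In mean TPM it was at 4932.9 in wild-type, 5218.8 in control and 3180.7 in repopulated microglia, and it ranked 13 to 37 among all genes of a library. Next came Gpr84 (246, 239 and 273 TPM) and Gpr183 (188, 147 and 150 TPM), in that order in all 10 libraries, although their ranges met in wild type, where Gpr84 began at 222 and Gpr183 ended at 226 TPM. Among the 135 listed receptor genes summed in TPM, Gpr34 made up 59.2 to 77.1% in wild-type, 73.9 to 78.6% in control and 58.3 to 66.6% in repopulated libraries, so the control and repopulated ranges of this share did not overlap. The 135 are the 7 and the listed lipid, metabolite, orphan and adhesion receptors. Abundant receptors outside these lists were left out, such as P2ry12 (4383.4 to 9407.6 CPM over all libraries) and Cx3cr1 (865 to 1996.7 CPM). The share is therefore not one of all receptors of these cells.

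The lower places changed between groups. In wild type the mean TPM order was Adgrg1 at 150 ± 50.2, Gpr160 at 108 ± 13.3, Gpr65 at 18.8 ± 8.85 and Gpr165 at 6.82 ± 1.92, where the first 2 did not differ beyond their spread and swapped places in wild-type 3. In control microglia Gpr65 at 80.1 ± 5.26 TPM came next after Gpr183, ahead of Adgrg1 at 58.3 ± 2.55 and Gpr160 at 52.2 ± 9.26, and these last 2 again lay within their spread. In repopulated microglia the order was that of wild type, with Adgrg1 at 105 ± 10.6, Gpr160 at 69.7 ± 4.92 and Gpr65 at 54.1 ± 10.4 TPM, and the last 2 came close, with libraries of Gpr65 up to 65.7 and of Gpr160 from 66.4 TPM. Gpr165 was last in every library, at 0.697 ± 0.196 TPM in control and 2.08 ± 1.24 TPM in repopulated microglia. The ratio of Gpr65 to Gpr160 in TPM was 0.118 to 0.258 in wild-type, 1.25 to 1.83 in control and 0.604 to 0.975 in repopulated libraries.

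**Figure D3:**
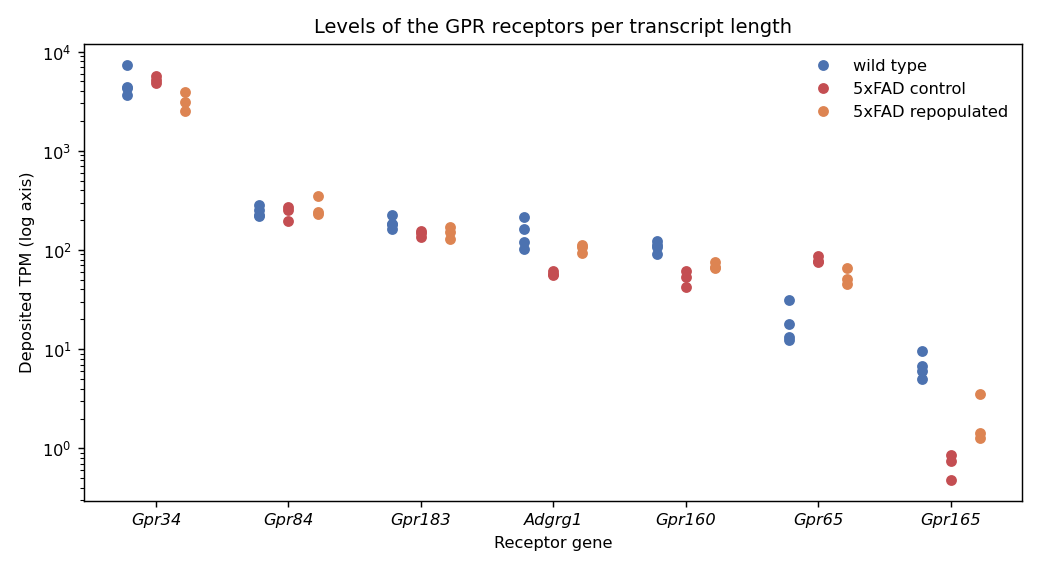
Deposited TPM of the 7 receptors (log axis) in every library, ordered by their mean TPM over all 10 libraries, with 1 column of points per group. Gpr34 lies between 2492.9 and 7355.1 TPM, far above the rest, and Gpr65 lies above Gpr160 and Adgrg1 in the 3 control libraries but below both in all others.

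Over the 10 libraries, which fall into 3 groups and share their processing, Pearson's r between log2 CPM of Gpr165 and Adgrg1 was 0.80, of Gpr160 and Adgrg1 0.74 and of Gpr165 and Gpr65 -0.85. These values mix the differences between groups with the spread inside them and are given as descriptions. Gpr183 and Adgrg1 had an r of 0.02. Gpr34 and Adgrg1 had an r of -0.70, and wild-type 2 was the wild-type library with the most Gpr34 and the least Adgrg1.

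The tested genes most like each receptor by the same measure were Wfdc17 (r 0.992), Tmsb10 (0.992) and Grcc10 (0.991) for Gpr65, and Tanc2 (0.988), Mgat1 (0.984) and Ttc7 (0.982) for Adgrg1. For Gpr160 they were Pygm (0.968), Nipa2 (0.962) and Akap12 (0.948), and for Gpr165 Zfp784 (0.962), Tlr5 (0.954) and Mmp28 (0.953). For Gpr34 they were Cgrrf1 (0.953), Serinc1 (0.951) and Atad1 (0.947). The closest were less alike for Gpr84, with Slc6a8 (0.894), Klhl6 (0.88) and Fars2 (0.855), and for Gpr183, with Zfp763 (0.888), Snx13 (0.876) and Pik3cg (0.85).

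Other receptors for lipids and metabolites gave the 7 a setting. Of 48 listed genes 45 were in the table and 19 were tested; 2 rose and 2 fell in control against wild-type microglia, 0 changed between repopulated and control microglia (0 at an unadjusted p under 0.05 in edgeR, 0 in DESeq2 and 0 in limma-voom), and 2 rose and 3 fell in repopulated against wild-type microglia. The shares called were 21.1%, 0% and 26.3% of the tested genes of this list, against 18.1%, 0.568% and 4.18% of all tested genes. The median log2 fold changes of the list were -0.32, -0.02 and -0.19, against -0.056, -0.0014 and -0.023 over all tested genes. Ptger4, a prostaglandin E2 receptor that like Gpr65 raises cyclic AMP, rose from 0.48 ± 0.321 CPM in wild type to 8.02 ± 1.57 CPM in control microglia (16.5-fold, edgeR adjusted p = 0.000477) and to 4.28 ± 2.1 CPM in repopulated microglia (8.81-fold, adjusted p = 0.00786, and 0.0555 without repopulated 3). Ptafr, the receptor for platelet-activating factor and second to Gpr34 among the listed receptors in mean TPM, fell from 1341.8 ± 266 to 810 ± 108 CPM in control (adjusted p = 0.00839) and 836 ± 106 CPM in repopulated microglia (adjusted p = 0.0326). Without the 3 Y-low libraries the adjusted p of Ptafr was 0.0535 and 0.0697, and that of Ptger4 was 0.0265 and 0.0889. Ptafr in repopulated against wild-type microglia was also not called without wild-type 3 or 4, control 1 or any 1 repopulated library (adjusted p 0.0555 to 0.201). Hcar2, the other listed receptor that rose, was at 4.12 ± 1.39 CPM in wild-type, 10.9 ± 0.611 CPM in control and 10.5 ± 4.41 CPM in repopulated microglia. Its edgeR adjusted p against wild type was 0.00694 for control and 0.0226 for repopulated microglia. The latter call was lost in 7 of 21 alternatives.

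Of 90 other orphan and adhesion receptor genes 83 were in the table and 25 were tested. In control against wild-type microglia 2 rose and 3 fell, which was 20.0% of those tested, against 18.1% of all tested genes. The median log2 fold change was -0.35, against -0.056 over all tested genes. In repopulated against control and against wild-type microglia 0 were called by edgeR, with 4 at an unadjusted p under 0.05, 2 called by DESeq2 and 0 by limma-voom in each. Of all tested genes edgeR called 0.568% and 4.18% there. Adgre1, which encodes the macrophage antigen F4/80 and is an adhesion receptor like Adgrg1, fell from 473 ± 36.2 to 291 ± 37.7 CPM (edgeR adjusted p = 0.0049). Gpr137b, a lysosomal membrane protein, rose from 161 ± 29.8 to 237 ± 20 CPM (adjusted p = 0.0153, 0.0578 without control 2 and 0.0907 without the 3 Y-low libraries).

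Behind the receptors, 68 of 83 listed genes of G protein signalling were tested, and 7 rose and 13 fell in control against wild-type microglia. That was 29.4% of those tested, against 18.1% of all tested genes. The median log2 fold change was -0.24, against -0.056 over all tested genes. Gnas, which encodes the stimulatory G protein subunit that both GPR65 and the product of Ptger4 use, was at 151, 143, 126 and 154 CPM in wild-type 1 to 4, 735, 636 and 633 CPM in control 1 to 3 and 508, 506 and 500 CPM in repopulated 1 to 3. The groups did not overlap, in the same order as for Gpr65. It rose 4.66-fold in control (edgeR log2 fold change 2.22, adjusted p = 2.01e-08) and 3.52-fold in repopulated microglia (1.82, adjusted p = 2.16e-07). Gnas is a locus of several overlapping transcripts, which the deposited values do not separate. Gng12, another G protein subunit gene, rose 2.63-fold in control (edgeR adjusted p = 1.72e-05) and 2.18-fold in repopulated against wild-type microglia (adjusted p = 0.000281).

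Gna15, a Gq-family subunit of blood cells, fell 2.59-fold in control against wild-type microglia, from 215 ± 38.1 to 83 ± 16.2 CPM (edgeR adjusted p = 5.27e-05), and was 2.13-fold higher in repopulated than in control microglia, at 177 ± 13 CPM (adjusted p = 0.0158). Pde4b, a phosphodiesterase that breaks down cyclic AMP, fell from 31.5 ± 4.4 to 12.1 ± 1.98 CPM (adjusted p = 0.000152) and was at 27.6 ± 4.64 CPM in repopulated microglia, 2.27-fold above control (adjusted p = 0.0158). These were the 2 of 68 genes called between repopulated and control microglia (2.94%, against 0.568% of all tested genes). Both calls were lost without control 1, control 2, repopulated 1 or repopulated 2 (adjusted p 0.0826 to 0.135), and control libraries serve both comparisons. Other listed phosphodiesterase genes went both ways in control against wild-type microglia. Pde8b rose (edgeR log2 fold change 0.59, adjusted p = 0.00367), while Pde4a and Pde4d fell (-0.89 and -0.83, adjusted p = 0.0224 and 0.0153). Listed adenylyl cyclase genes also went both ways in that comparison. Adcy3 rose (edgeR log2 fold change 1.47, adjusted p = 0.0261), while Adcy8 and Adcy9 fell (-1.0 and -0.59, adjusted p = 0.0456 and 0.0498).

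**Figure D4:**
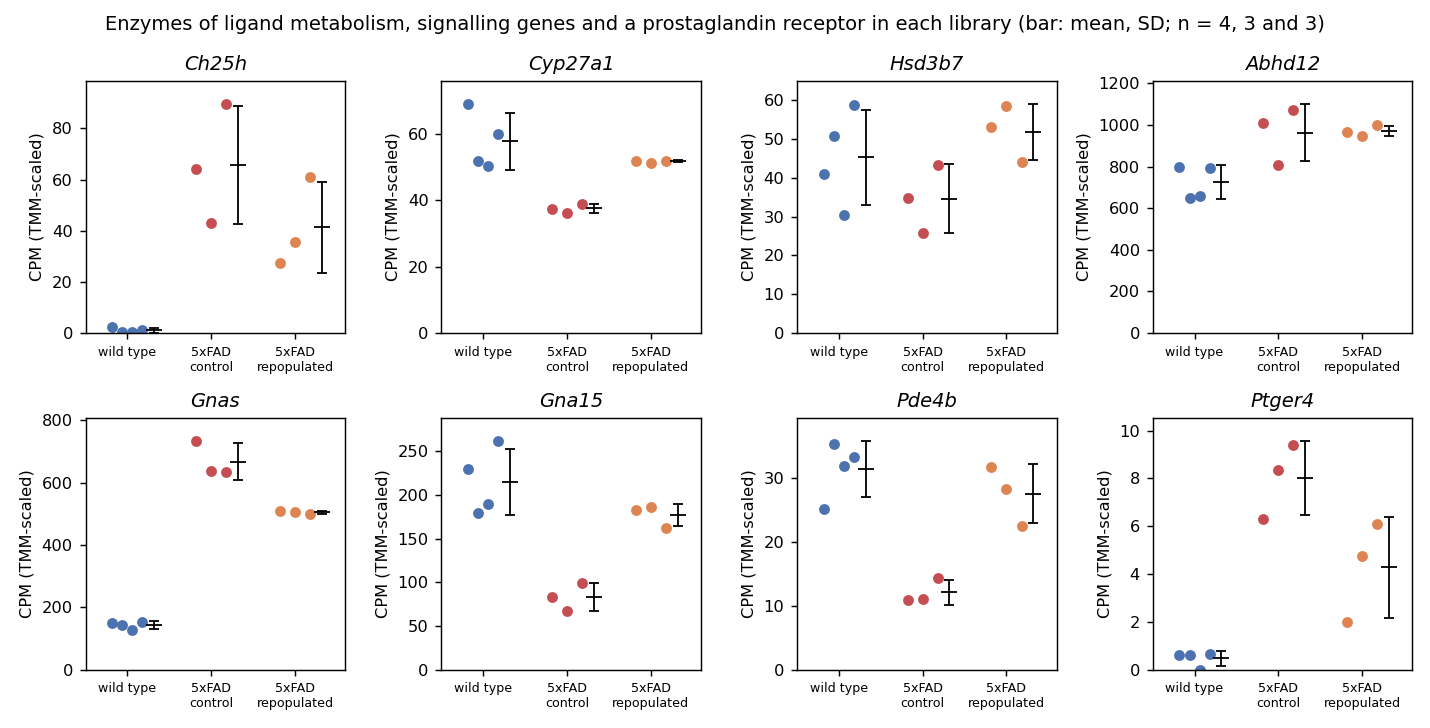
Level (CPM, linear axis from 0) in every library of 4 enzymes of receptor ligands (Ch25h, Cyp27a1, Hsd3b7 and Abhd12), 3 signalling genes (Gnas, Gna15 and Pde4b) and the prostaglandin receptor gene Ptger4, with group mean and SD. Ch25h, Gnas and Ptger4 are higher in all 5xFAD than in all wild-type libraries, while Gna15 and Pde4b are lowest in the 3 control libraries.

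Markers of other cells were read beside these results. Neutrophil markers were lowest in the 3 Y-low libraries, at 19.1 CPM at the least, and reached 335 CPM in control 2. Gpr84, which neutrophils also express, was lower in control 2 (182 CPM) than in control 1 and 3 (244 and 261 CPM). T and NK cell markers, from cells that also express Gpr65 and Gpr183, summed to 1.85 to 3.81 CPM in wild-type, 0.849 to 1.81 CPM in control and 2.28 to 3.09 CPM in repopulated libraries (6 of 9 in the table). Most of it was Klrd1, a marker of NK cells, at 0.0486 to 3.28 CPM, or Cd2 in wild-type 3. The T cell markers Cd3d and Cd3g were at 0 to 0.151 CPM in every library. Border macrophage markers overlapped between the 3 groups, at 55.9 to 95.5, 64.7 to 111 and 54.1 to 82.7 CPM, and monocyte markers at 33.7 to 60.1, 42.3 to 74.9 and 37.3 to 39.3 CPM. Single genes of these lists were called: Folr2 rose in control and repopulated against wild-type microglia (edgeR log2 fold change 1.15 and 1.04, adjusted p = 0.00336 and 0.0179), Fn1 likewise (3.47 and 2.61, adjusted p = 0.000642 and 0.0132), and Ms4a4c in control microglia (0.82, adjusted p = 0.0378). Dendritic cell markers summed to 2791.1 to 3867.4 CPM in wild-type, 4116.8 to 5314 CPM in control and 3253.1 to 3601.2 CPM in repopulated libraries, mostly from Siglech, which is also on the microglial list. Without Siglech the other 7 summed to 26.2 to 46.3, 31.4 to 75.8 and 15.7 to 18.3 CPM, with Cd209a called lower in repopulated than in control (edgeR log2 fold change -3.15, adjusted p = 0.0351) and wild-type microglia (-2.16, adjusted p = 0.0374). The part of these markers in the receptor levels was not tested. Wild-type 3, with the highest summed neuronal, erythroid, astrocyte and oligodendrocyte markers, was also the wild-type library with the most Gpr65 and Gpr160. The part of RNA from such cells in these levels was not tested.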

How the data were processed

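Hippocampal microglia gave 10 Smart-Seq libraries in 3 groups. The authors deposited 1 table with estimated counts (expected counts, reads per gene without normalisation), FPKM and TPM for each gene and library, per the file headers. HISAT, Bowtie2 and the build GRCm38.p6 are named, per the submitters' processing notes. The quantifier, tool versions and strand setting: not given in the sources used here. Estimated counts can divide reads between similar genes.

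Estimated counts were rounded and fitted with edgeR 4.0.16 (R 4.3.3), beside DESeq2 1.42.0, limma 3.58.1 and statmod 1.5.0, with filterByExpr, TMM, robust quasi-likelihood tests, 1 model for all 10 libraries with 3 groups, and adjustment by Benjamini-Hochberg over 12505 genes at 0.05. CPM were TMM-scaled. Folds used a prior count of 0.125, and likeness log2 CPM with a prior count of 2. The deposited TPM served to order genes, and the deposited FPKM were not used. The biological coefficient of variation was 27.3%, and libraries of the same group differed from each other beyond sampling noise. The method was tested on simulated data. False calls exceeded the nominal rate for control against wild type. Of 2-fold changes 49.3 to 54.3% were called over the comparisons, and most smaller changes were missed. A gene that was not called may therefore still differ.

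The members and lists were chosen with earlier results of these data known. Genes named are the 7 members, up to 5 called genes of each list and comparison by p, genes that overlap or adjoin a member, the 3 most like genes of each member, and markers that stand apart. The text leaves out some of them, and enzymes of member ligands, Y-linked genes and other genes of the lists were named for their role. Alternatives were DESeq2 size factors and upper-quartile scaling, DESeq2 and limma-voom, another prior count (0.5), no expression filter or one requiring 5 CPM in 3 libraries, leaving out single libraries, blocking on the replicate number, fitting just the 2 compared groups, a term for Y-linked status, and leaving out the 3 Y-low libraries (under 50 CPM). Coordinates and promoters are from RefSeq on GRCm38.p6, and exon overlaps from GENCODE.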

Additional observations from a re-analysis of the deposited data

Results flagged for a closer look

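The wild-type values of 26 genes were examined, and 1 gene held a library far from the rest of that group. The control and repopulated groups were not checked in this way. Ptger4, the prostaglandin E2 receptor gene, was not counted in wild-type 3 (0 CPM), whereas wild-type 1, 2 and 4 held 0.617 to 0.674 CPM. The gap from wild-type 3 to the nearest library was 0.916 of the range of the group, above the critical value of Dixon's test for 4 samples, which chance passes in about 1 in 20 groups. For Gpr34, wild-type 2 lay at a gap of 0.708 of the range, below that value.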

How the results depend on the processing

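With the Y-low libraries left out, so that control 2 stood alone for its group and was assumed to vary like the others, log2 fold changes of the receptors were, for control against wild type, -0.03 for Gpr84 and -1.12 for Gpr160 and, for repopulated against control, 0.63 for Gpr160 and 0.79 for Adgrg1. With Y-linked status as a term the latter was 0.51. Of 441 alternative values of the receptors' fold changes 433 moved by less than the spread between replicates. Some of these could hardly move, such as those without a library of the group not compared. When each library was left out, Gpr165 gave 0.77 to 1.71 for repopulated against control and -2.15 to -1.22 for repopulated against wild type, and Gpr84 0.09 to 0.48 for the latter. The values of 0.77, -2.15 and 0.09 were those without repopulated 3. No direction of a called difference was reversed.

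Counts of called genes moved more. In control against wild type, lipid and metabolite receptors (4 called) gave 1 without the Y-low libraries. Orphan and adhesion receptors (5) gave 2 without those libraries, 3 with Y-linked status as a term, 3 with only the compared groups and 2 to 5 when each library was left out, 3 of them without control 1 and 2 without control 2. G protein signalling genes (20) gave 8 without those libraries, 12 with Y-linked status as a term and, when each was left out, 11 to 25 (12 when wild-type 1, 11 when control 1 and 13 when control 3 was the one).

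In repopulated against control, orphan and adhesion receptors (0) gave 1 without the Y-low libraries and 2 with DESeq2, and ligand makers (0) gave 2 with only the compared groups. G protein signalling genes (2) gave 4 without the Y-low libraries, 0 with Y-linked status as a term, 5 with only the compared groups, 8 with DESeq2 and 0 to 4 when each library was left out, with 0 without control 1 or 2 or repopulated 1 or 2 and 4 without wild-type 3 or control 3. Among the receptors, Adgrg1 was called without wild-type 1, Adgrg1 and Gpr65 without wild-type 3, Adgrg1, Gpr34 and Gpr65 with only the compared groups, and Adgrg1, Gpr165 and Gpr34 with DESeq2. As the choice of the receptors drew on these contrasts, nothing is read from these calls.

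In repopulated against wild type, lipid and metabolite receptors (5) gave 0 without the Y-low libraries, 3 with Y-linked status as a term, 2 with only the compared groups, 3 with limma-voom and 0 to 5 when each was left out, with 0 without repopulated 3 and 1 without wild-type 4 or repopulated 2. Orphan and adhesion receptors (0) gave 2 with DESeq2 and 1 without wild-type 3 or repopulated 3, a range of 0 to 1. Ligand makers (1) gave 2 with DESeq2. G protein signalling genes (2) gave 4 with Y-linked status as a term, 4 with no filter, 6 with DESeq2 and 2 to 5 when each was left out, with 4 without wild-type 3 and 5 without control 2. The causes of these moves were not tested.

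Same-numbered libraries did not deviate together (correlations of -0.105 to 0.071), so the numbers were not taken to pair samples. With a replicate block G protein signalling gave 13 and 1 called genes in control against wild type and repopulated against control, lipid and metabolite receptors gave 2 in repopulated against wild type, and Gpr165 was no longer called there; over all genes 1464, 25 and 376 were called in the 3 comparisons, against 2265, 71 and 523. Between repopulated and control microglia the count over all genes ran from 0 without repopulated 2 to 630 with only the compared groups. Among 567 alternative values of named list genes 74 lost their call and 0 were reversed. Other scaling moved the median of all genes by at most 0.02 (log2). At 22 to 38 counts per control library, Gpr165 is the receptor whose values depth limits most.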
